A study of Mus musculus with 21 samples.

Results

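The 45 genes described here act in DNA replication and cell division, and were read as 18 S phase genes and 27 mitosis genes. They were chosen by name, and each was taken by its brightest probe among all non-control probes that carry its symbol or were designed for its RefSeq record. All 45 have a probe on both array designs, among 24191 named genes on the day 7 design and 27499 on the day 0 design. A gene was tested on a day when its probe was detected in enough arrays, which held for 43 of the 45 genes at day 7 (17 S phase and 26 mitosis genes) and for 45 of 45 at day 0. Ccne2 and Aurkb, the 2 genes not tested at day 7, had probes near background in all 8 arrays of that day.

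Total colon RNA of male germ-free (GF) C57BL/6J mice was hybridized to 21 single-colour Agilent arrays, 1 array per sample. GF mice carry no microbiota, and the 2 genotypes on the labels are GF WT and GF Card9-/-, a deletion of the adaptor protein that relays signals from pattern recognition receptors in myeloid cells. At day 0, before dextran sulfate sodium (DSS), 7 arrays were labelled GF Card9-/- and 6 GF WT. At day 7, after 7 days of 2% DSS in the drinking water, which injures the colon epithelium, 4 arrays were labelled GF Card9-/- (replicates 2, 2.1, 4 and 6) and 4 GF WT (replicates 1, 4, 5 and 6). The age of these mice and the deleted part of Card9 are not given in the sources used here. The question was which colon genes differ between the genotypes independently of the microbiota. Labels give separate samples but do not say whether each came from its own mouse, so p-values measure the spread between these samples, which may be technical. In RNA of whole tissue, fewer cells of a type and less RNA per cell cannot be told apart.

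A dividing cell copies its DNA in S phase and separates the copies in mitosis, and the genes of each step are switched on in waves. E2F factors drive the S phase genes, from licensing of replication origins to synthesis of nucleotides. The mitosis genes follow later, under B-MYB and FOXM1, which act with the MuvB complex on a promoter element called CHR (cell cycle genes homology region). In the colon most division takes place in the lower crypt, among stem cells and their transit-amplifying progeny, and repair after DSS draws on these cells.

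The stretches that follow show promoter elements whose share differs between the S phase and the mitosis genes. Promoter windows of RefSeq (GRCm38.p6, from 250 bases before to 50 bases after a start site) were found for 15 of the 18 S phase genes and 22 of the 27 mitosis genes. Both strands were searched for CHR (TTTGAA or TTCGAA), E2F sites (TTTCCCGC, TTTCGCGC, TTTGCCGC or TTTGGCGC) and CCAAT boxes, of which the last can overlap an E2F match. Each line gives the 30 bases around the match nearest the start site, in the direction of the gene, with the match in capitals, written as its reverse complement where it lies on the other strand. The first 8 are CHR matches of mitosis genes whose values are given below.
Mki67 (chr7:135716460-135716489, minus strand): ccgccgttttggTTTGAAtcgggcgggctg
Top2a (chr11:99024195-99024224, minus strand): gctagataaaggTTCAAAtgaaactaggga
Ccnb2 (chr9:70421533-70421562, minus strand): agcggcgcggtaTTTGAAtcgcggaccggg
Cdk1 (chr10:69352910-69352939, minus strand): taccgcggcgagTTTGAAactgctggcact
Bub1b (chr2:118598011-118598040, plus strand): tctctccctgggTTCGAAggcttgtcttag
Ube2c (chr2:164769888-164769917, plus strand): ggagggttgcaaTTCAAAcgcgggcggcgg
Kif11 (chr19:37376351-37376380, plus strand): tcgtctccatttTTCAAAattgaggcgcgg
Kif2c (chr4:117178858-117178887, minus strand): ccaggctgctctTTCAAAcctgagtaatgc
The next 5 are E2F matches of S phase genes, 4 of them subunits of the MCM helicase that unwinds DNA at the fork.
Cdc6 (chr11:98908002-98908031, plus strand): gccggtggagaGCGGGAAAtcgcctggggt
Mcm3 (chr1:20820275-20820304, minus strand): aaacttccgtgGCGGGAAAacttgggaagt
Mcm5 (chr8:75109349-75109378, plus strand): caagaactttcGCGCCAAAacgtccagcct
Mcm6 (chr1:128359734-128359763, minus strand): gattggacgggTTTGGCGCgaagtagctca
Mcm7 (chr5:138171849-138171878, minus strand): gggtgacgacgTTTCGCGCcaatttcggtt

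CHR letters were found in 17 of the 22 mitosis genes (77.3%), against 2 of the 15 S phase genes (13.3%) and 21.7% of all 27025 genes with a window. E2F letters showed the opposite split, in 7 of 15 S phase genes (46.7%), 1 of 22 mitosis genes (4.55%) and 2.6% of all genes. The mitosis gene with an E2F match was Cdk1, the kinase that drives entry into mitosis. CCAAT boxes, the sites of the factor NF-Y, were found in 18 of 22 mitosis genes (81.8%), 9 of 15 S phase genes and 41.1% of all genes. A total of 16 of the 22 mitosis genes held both CHR and CCAAT letters, against 8.61% of all genes. Ccnb1 and Nusap1 had no CHR letters in these windows, which says only that the letters are not in this stretch.

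**Figure D1:**
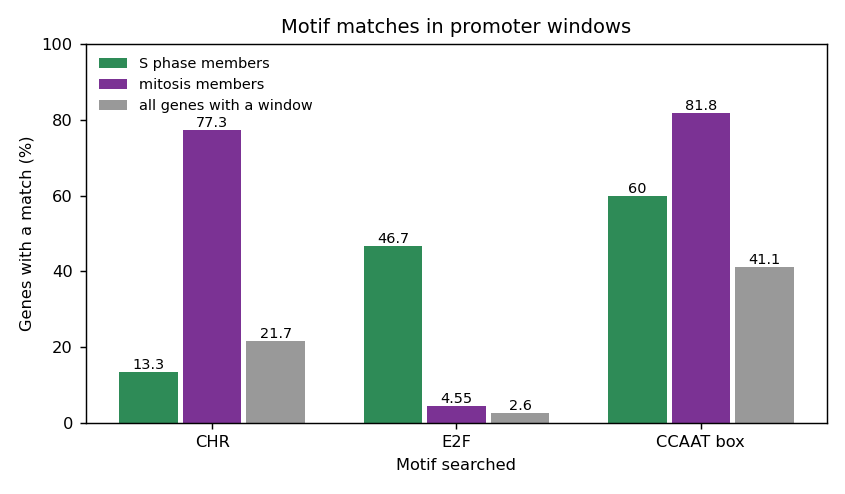
Share of genes (y axis, percent) with at least 1 match to each motif (x axis) in a promoter window, for 15 S phase genes, 22 mitosis genes and all 27025 genes with a window. The CHR bar is highest for the mitosis genes (77.3%) and the E2F bar for the S phase genes (46.7%).

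Before the results, several arrays stood apart or went against their labels. Card9 itself, the deleted gene, was brighter under the label GF Card9-/- on both days: its normalized log2 signal was 8.71 to 9.24 in the 7 arrays so labelled at day 0 and 2.30 to 2.33 in the 6 labelled GF WT. At day 7 it was 7.93 to 8.57 in the 4 arrays labelled GF Card9-/-, 7.85 in GF WT replicate 1 and 2.38 to 2.41 in the other 3 labelled GF WT, so every direction given here is that of the labels. Whether the labels are exchanged, which would turn every direction, was not tested. Nor was the place of the probe relative to the deleted part, which bears on the signal in mice with the deletion and not on that in WT mice. Pancreas genes were high in 3 arrays, all with the label GF Card9-/-: replicates 2.1 and 6 of day 7, and replicate 7 of day 0. The 8 arrays of day 7 lie on 6 slides, 2 of which hold both labels, and the 13 of day 0 on 4 slides that each hold both. Between 42.2% and 57.1% of the spots were marked by the scanner software as well above background at day 7, and between 54.5% and 64.9% at day 0. All 10 epithelial markers were well above background on every array of both days.

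At day 7 the mitosis genes had lower means in the arrays labelled GF Card9-/-, while the S phase genes lay on both sides of 0. All 26 tested mitosis genes had a lower mean, by a median of -0.72 on the log2 scale (range -1.01 to -0.22, or 1.17-fold to 2.01-fold lower), while 50.3% of all 21091 genes tested had a lower mean. Of the 17 S phase genes, 5 had a lower and 12 a higher mean (49.7% of all genes had a higher one), with a median of 0.07. That split turned with the arrays used: 14 of 17 had a lower mean on the slides that hold both labels, 12 of 17 with the replicate block, and 11 of 17 without GF Card9-/- replicate 2.1 or without both arrays with pancreas genes. No single gene passed the test: adjusted p from limma was 0.913 to 1 over the 43 genes, and 0 of 44643 probes (0%) passed at 0.05, against 3.38% at an unadjusted p under 0.05. Unadjusted p was under 0.05 and the mean lower for 8 of the 26 mitosis genes, against 1.25% of all genes. It was under 0.05 with a higher mean for none of the 43, against 1.67% of all genes. Cenpf and Ttk had probes near background in all 8 arrays, and with probes kept only where well above background 23 of 23 mitosis genes had a lower mean, with a median of -0.74. Without GF WT replicate 1, whose Card9 signal differs from that of the other 3 arrays so labelled, 26 of 27 had a lower mean and the median was -0.74.

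**Figure D2:**
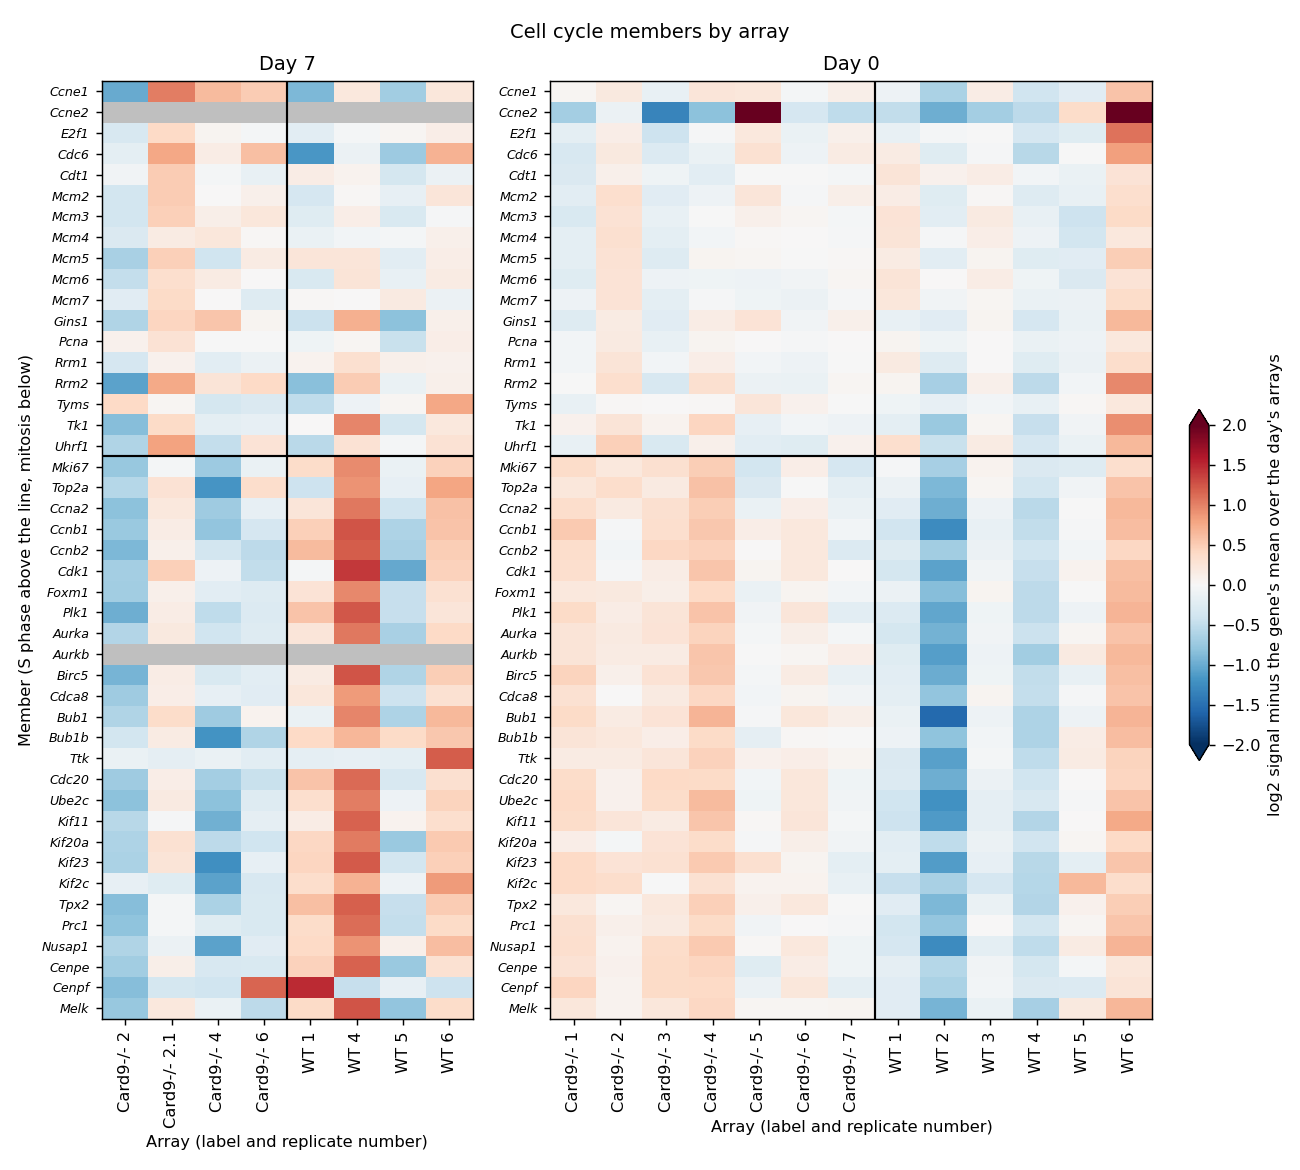
Normalized log2 signal of each gene minus its mean over the arrays of the day (colour, from -2 to 2) for 45 genes (rows) in 8 arrays of day 7 and 13 arrays of day 0 (columns, with label and replicate number). Grey rows were not tested. Below the line, the mitosis genes move together within an array, lowest in GF WT replicate 2 at day 0 and highest in GF WT replicate 4 at day 7.

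The labels did not overlap for 4 of the 26 mitosis genes at day 7, all with a lower mean, against 0.925% of all genes. None of the 43 was separated with a higher mean, against 1.02%. Nusap1, which binds and bundles spindle microtubules, gave normalized log2 signals of 7.23, 7.71, 6.76 and 7.60 under the label GF Card9-/- (replicates 2, 2.1, 4 and 6). Under the label GF WT (replicates 1, 4, 5 and 6) they were 8.23, 8.73, 7.93 and 8.45. Every array labelled GF WT was thus brighter, and the log2 difference was the largest of the 43 genes in size, at -1.01 (standard error 0.26, limma adjusted p = 0.913).

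Bub1b, the checkpoint kinase BUBR1 that delays anaphase until chromosomes are attached, had signals of 6.48, 7.01, 5.65 and 6.23 against 7.24, 7.50, 7.22 and 7.38, in the same order of replicates. The spread was wider under the label GF Card9-/-, with an SD of 0.56 against 0.13, and replicate 4 was the lowest. The log2 difference was -0.99 (standard error 0.27, limma adjusted p = 0.913). Kif11, the motor that pushes the spindle poles apart, had signals of 5.69, 6.23, 5.29 and 6.06 against 6.39, 7.42, 6.32 and 6.59, a log2 difference of -0.86 (standard error 0.31). GF Card9-/- replicate 2.1 and GF WT replicate 5 were the closest arrays across the labels. Kif2c, a kinesin that takes microtubule ends apart to correct wrong attachments, had signals of 4.65, 4.57, 3.74 and 4.50 against 5.17, 5.51, 4.72 and 5.68. The difference was -0.91 (standard error 0.28), but the probe was well above background on only 1 array labelled GF Card9-/- and 2 labelled GF WT. It was -0.32 both with normexp background correction and in the table the authors deposited. With normexp Kif11 was -0.47 and Bub1b -0.63, and in the deposited table Kif11 was -0.54.

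In the proliferation markers the labels overlapped. Mki67, the Ki-67 protein that coats mitotic chromosomes and marks cycling cells, had signals of 10.21, 10.93, 10.25 and 10.84 against 11.35, 11.92, 10.84 and 11.44. Only GF WT replicate 5 lay under the highest array labelled GF Card9-/-, and the log2 difference was -0.83 (standard error 0.28, limma adjusted p = 0.913). A further Mki67 probe gave -0.86. Top2a, the topoisomerase that untangles sister chromatids, had signals of 6.80, 7.65, 6.19 and 7.72 against 6.96, 8.27, 7.20 and 8.16. These overlapped widely, with replicate 4 lowest among the arrays labelled GF Card9-/-, and the difference of -0.56 had a standard error of 0.45. Leaving out 1 array at a time gave -0.78 to -0.25, the smallest without GF Card9-/- replicate 4.

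The kinases and cyclins that start mitosis had lower means with larger errors. Ccnb1, cyclin B1, had signals of 7.92, 8.81, 7.87 and 8.33 against 9.14, 9.92, 8.05 and 9.23. Here 3 of the 4 arrays labelled GF WT exceeded every array labelled GF Card9-/-, and the log2 difference was -0.85 (standard error 0.41). Its partner kinase Cdk1 had signals of 6.64, 7.80, 7.22 and 6.83 against 7.29, 8.74, 6.30 and 7.78, from 6.30 in GF WT replicate 5 to 8.74 in replicate 4 under 1 label. The difference of -0.41 (standard error 0.52) was smaller than the spread within the label, and it was -0.0012 without GF WT replicate 4 and -0.81 without replicate 5. Ccna2 (cyclin A2), Ccnb2 (cyclin B2), Plk1 (polo-like kinase) and Aurka (Aurora A, at the spindle poles) differed by -0.74, -0.84, -0.80 and -0.53, with standard errors of 0.36, 0.41, 0.39 and 0.36. Foxm1, the transcription factor of the mitosis genes, differed by -0.53 (standard error 0.31).

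Genes of mitotic exit and of the spindle lay in the same range. Ube2c, the E2 enzyme of the anaphase-promoting complex, had signals of 8.93, 9.93, 8.93 and 9.49 against 10.07, 10.77, 9.64 and 10.19. Replicate 2.1 was the only array labelled GF Card9-/- above any labelled GF WT, and the log2 difference was -0.85 (standard error 0.31). Cdc20, which activates the same complex, differed by -0.85 (standard error 0.33). Tpx2, which activates Aurora A on the spindle, had signals of 6.60, 7.43, 6.82 and 7.15 against 8.05, 8.65, 6.99 and 7.96, a difference of -0.91 (standard error 0.36). Again GF WT replicate 5 was the one array of its label within the other. As a mean over the tested Tpx2 probes, of which the second was dim, the difference was -0.37. The other spindle, cytokinesis, centromere and checkpoint genes (Birc5, Cdca8, Bub1, Ttk, Kif20a, Kif23, Prc1, Cenpe, Cenpf and the kinase Melk) had differences from -0.88 for Kif23, a motor of the cleavage furrow, to -0.22 for Cenpf, the dim kinetochore probe.

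The S phase genes at day 7 are given by role, from the helicase to nucleotide synthesis. Of the 6 MCM subunits, 4 had a higher and 2 a lower mean, from -0.20 for Mcm5 to 0.22 for Mcm3. Mcm5 had signals of 7.88, 9.01, 8.13 and 8.69 against 8.77, 8.76, 8.32 and 8.67, with the lowest and the highest array both labelled GF Card9-/-. Mcm3 had signals of 8.86, 9.70, 9.35 and 9.45 against 8.99, 9.37, 8.92 and 9.20, and its difference had a standard error of 0.20. Mcm2 had signals of 7.12, 7.99, 7.50 and 7.59 against 7.15, 7.52, 7.32 and 7.73, a difference of 0.12 (standard error 0.21). In all 3, replicate 2.1 was the highest of the 8 arrays and replicate 2 the lowest, and without replicate 2.1 or replicate 2 Mcm3 was 0.10 or 0.38 and Mcm5 -0.40 or -0.02.

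The licensing factors that load the helicase were Cdc6 and Cdt1. Cdc6 had the largest higher mean of the 43 genes, with signals of 3.58, 4.55, 3.93 and 4.38 against 2.62, 3.66, 3.05 and 4.48 and a difference of 0.66 (standard error 0.42). Its probe was well above background on none of the arrays labelled GF Card9-/- and on 1 labelled GF WT, and with dim values raised to the dimmest signal well above background the difference was -0.13. It was 0.084 with normexp and 0.37 with scaling to the 75th percentile, and 0.38 and 1.0006 without GF WT replicates 1 and 6. Cdt1 differed by 0.13 (standard error 0.19). Ccne1, cyclin E1, which starts S phase, had signals of 6.48, 8.51, 8.13 and 7.99 against 6.59, 7.69, 6.79 and 7.71. Both labels held low and high arrays, and the difference of 0.58 had a standard error of 0.49. It was 1.01 without GF Card9-/- replicate 2, 0.33 without replicate 2.1 and 0.38 without GF WT replicate 1. E2f1, the transcription factor, had signals of 6.42, 7.14, 6.79 and 6.70 against 6.54, 6.70, 6.78 and 6.87, a difference of 0.04 (standard error 0.17).

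Pcna, the sliding clamp of the DNA polymerases, had signals of 12.16, 12.36, 12.07 and 12.07 against 11.98, 12.11, 11.62 and 12.21, a difference of 0.18 (standard error 0.15). The labels overlapped, and GF WT replicate 5 was the lowest array, without which the difference was 0.065. The enzymes that make deoxynucleotides did not move one way. Rrm2, the regulated subunit of ribonucleotide reductase, had signals of 7.18, 9.01, 8.51 and 8.65 against 7.41, 8.75, 8.11 and 8.35, a difference of 0.18 (standard error 0.45), while its partner Rrm1 differed by -0.29 (standard error 0.13, limma adjusted p = 0.913). Tyms (thymidylate synthase) and Tk1 (thymidine kinase) differed by -0.10 and -0.42. The remaining differences were 0.22 for Gins1, of the replicative helicase, and 0.0012 for Uhrf1, which maintains DNA methylation.

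The members were also summed in each array, as the average over genes of the log2 signal after centring each gene on its mean of the day. At day 7 the mitosis score was -0.67, 0.10, -0.60 and -0.21 under the label GF Card9-/- and 0.34, 0.97, -0.39 and 0.47 under the label GF WT, in the order of replicates given above. The labels overlapped: GF WT replicate 5 lay below GF Card9-/- replicates 2.1 and 6. GF WT replicate 4 was the highest array for 23 of 26 mitosis genes, and GF Card9-/- replicates 2 and 4 were the lowest for 11 and 9. The S phase score was -0.41, 0.46, 0.03 and 0.08 against -0.31, 0.20, -0.24 and 0.18, and here replicate 2.1 was the highest array for 12 of 17 genes. The S phase score minus the mitosis score was 0.26, 0.36, 0.63 and 0.29 under the label GF Card9-/- and -0.64, -0.76, 0.15 and -0.29 in those labelled GF WT. These 2 ranges did not overlap. Their means were 0.39 ± 0.17 (SD) and -0.39 ± 0.41, given as a description with no test.

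**Figure D3:**
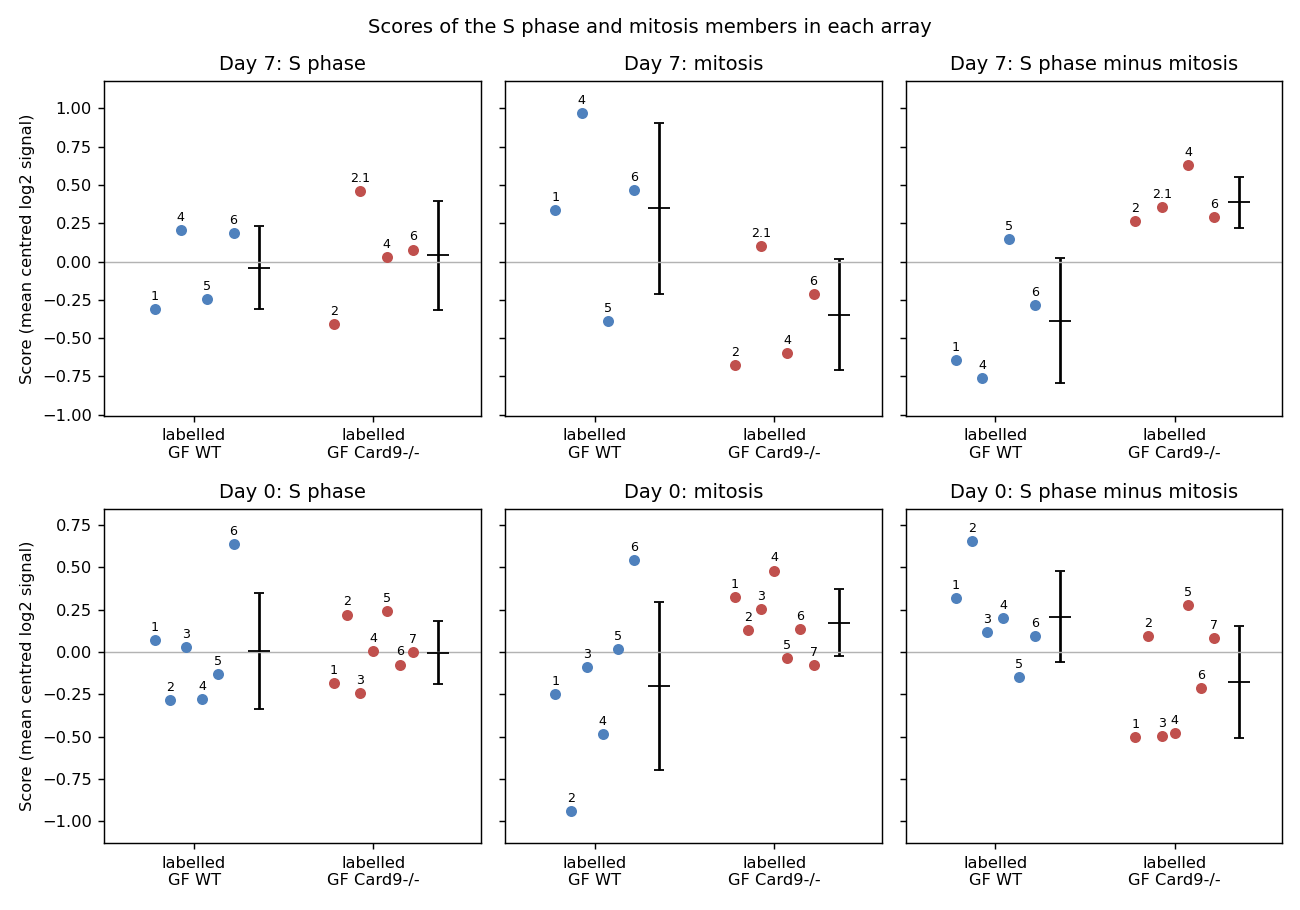
Scores on the log2 scale (y axis) of the S phase genes, the mitosis genes and their difference in each array, by label (x axis), for day 7 (top) and day 0 (bottom). Points are arrays with their replicate number, and the bars beside them give the mean and SD of the label. At day 7 the S phase minus mitosis score was 0.26 to 0.63 in the arrays labelled GF Card9-/- and -0.76 to 0.15 in those labelled GF WT.

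Pairs of arrays on the same slide gave the same direction for the mitosis genes. On the slide with GF Card9-/- replicate 2 and GF WT replicate 6, 26 of 26 mitosis genes and 16 of 17 S phase genes were lower under the label GF Card9-/-, with medians of -1.17 and -0.60. On the slide with replicates 2.1 and 4, 25 of 26 mitosis genes were lower (median -0.95) and 14 of 17 S phase genes were higher (median 0.26). Single arrays moved the size. The number of members with an unadjusted p under 0.05 (8 with all arrays) was 4, 12, 3 and 6 without GF Card9-/- replicates 2, 2.1, 4 and 6. It was 6, 5, 21 and 6 without GF WT replicates 1, 4, 5 and 6. The share of all genes was not counted in these fits, so a rise among the members cannot be told from a rise over all genes. With GF WT replicate 4 left out the mitosis median was -0.45. With GF WT replicate 5 left out it was -0.98. Without the 2 arrays with pancreas genes it was -1.08 (25 of 25 lower) and that of the S phase genes -0.12.

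Other marker lists also differed in mean between the labels at day 7, though none of their genes passed the test, and their part in the result was not tested. Markers of crypt stem cells had a lower mean for 7 of 8 genes (median -0.27). Their summed level was -0.33 to -0.03 under the label GF Card9-/- and 0.08 to 0.26 under the label GF WT, and the order of labels is the same in the values that follow. Lgr5, which defines these cells, was near background in all 8 arrays. Markers of differentiated colonocytes had a higher mean for 9 of 9 genes (median 0.37), with summed levels of -0.02 to 0.59 against -1.28 to 0.20. The 10 epithelial markers had a median of 0.10, with summed levels of -0.07 to 0.26 against -0.57 to 0.18. Neutrophil markers had a higher mean for 6 of 6 genes (median 0.81, summed levels of 0.04 to 0.93 against -0.71 to -0.17). Cxcr2 was near background in all 8 arrays. S100a8, Retnlg and S100a9 differed by 1.46, 1.66 and 1.65. They were well above background on 1, 2 and 4 arrays labelled GF Card9-/- and on 0, 0 and 1 labelled GF WT. Csf3r and Ly6g, well above background on all 8 arrays, differed by 0.12 and 0.06. T cell markers had a higher mean for 7 of 7 (median 0.75, -0.30 to 1.17 against -0.57 to -0.06), adipocyte markers for 5 of 6 (median 1.23, -0.54 to 1.58 against -1.63 to 0.81) and B cell markers for 8 of 10 (median 0.52, -1.07 to 1.54 against -1.29 to 0.63). Smooth muscle markers had a lower mean for 7 of 8 (median -0.41, -1.42 to 0.67 against -1.20 to 1.10). Pancreas genes had summed levels of -2.48 to 8.99 against -3.02 to -2.28 (median difference 5.22), and the mitosis scores of its 2 highest arrays, replicates 2.1 and 6, were the 2 highest under their label.

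At day 0, before DSS, the mitosis genes had higher means under the label GF Card9-/-, at about the size of the spread between arrays. All 27 had a higher mean, by a median of 0.38 on the log2 scale (range 0.24 to 0.57, or 1.18-fold to 1.48-fold higher), while 55.5% of all 23741 genes tested had a higher mean. Of the 18 S phase genes, 10 had a lower and 8 a higher mean, with a median of -0.01. None of the 45 passed the test (adjusted p of 0.755 to 0.997 from limma), where 12 of 47410 probes (0.0253%) passed and 5.84% had an unadjusted p under 0.05. Unadjusted p was under 0.05 for 4 of the 27 mitosis genes (Kif23, Cdc20, Cenpe and Cenpf), all with a higher mean, against 4.41% of all genes. The labels overlapped for every member, where they did not for 0.43% of all genes with a higher mean.

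Mki67 ranged over 11.88 to 12.73 with a median of 12.46 under the label GF Card9-/- (7 arrays) and 11.58 to 12.58 with a median of 12.11 under the label GF WT (6 arrays), as normalized log2 signals. Its log2 difference was 0.26 (standard error 0.18, limma adjusted p = 0.912), and the lowest array was GF WT replicate 2. Top2a ranged over 10.52 to 11.39 with a median of 10.98 against 9.91 to 11.38 with a median of 10.72, a difference of 0.26 (standard error 0.21). GF WT replicate 2 was again the lowest array, as for all 27 mitosis genes. With it left out the difference was 0.15 for Mki67 and 0.11 for Top2a, and with GF WT replicate 6 left out 0.35 and 0.40.

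Ccnb1 ranged over 9.81 to 10.41 with a median of 10.07 against 8.61 to 10.48 with a median of 9.60, a difference of 0.52 (standard error 0.24, limma adjusted p = 0.865). Cdk1 ranged over 9.03 to 9.60 with a median of 9.20 against 7.98 to 9.66 with a median of 8.84, a difference of 0.40 (standard error 0.22). The medians differed in the same direction in both, but a GF WT array was the highest of all 13. Aurkb, the Aurora kinase of the chromosomal passenger complex that could not be tested at day 7, ranged over 8.51 to 9.07 with a median of 8.67 against 7.41 to 9.16 with a median of 8.34, a difference of 0.40 (standard error 0.24). Ube2c ranged over 10.98 to 11.70 with a median of 11.30 against 9.85 to 11.64 with a median of 10.82, a difference of 0.49 (standard error 0.23). With GF WT replicate 2 left out, Ccnb1, Cdk1, Aurkb and Ube2c were 0.32, 0.23, 0.23 and 0.30, and with GF WT replicate 6 left out 0.70, 0.56, 0.58 and 0.65.

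The largest differences of day 0 were those of Bub1 and Kif23, beside Ccnb1. Bub1, a kinase of the spindle checkpoint, ranged over 7.06 to 7.76 with a median of 7.31 against 5.52 to 7.76 with a median of 6.96, a difference of 0.57 (standard error 0.28). Its lowest array was 5.52 and the next of that label 6.47, and the difference was 0.32 with normexp and also without that lowest array. Kif23 ranged over 8.06 to 8.76 with a median of 8.56 against 7.14 to 8.80 with a median of 8.05, a difference of 0.52 (standard error 0.22, limma adjusted p = 0.793). As means over all tested probes of the gene, Bub1 was 0.29 and Kif23 0.23. Nusap1, Bub1b, Kif11 and Kif2c, which did not overlap at day 7, had differences of 0.45, 0.25, 0.48 and 0.32 at day 0.

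S phase genes at day 0 were close to no difference, with medians of -0.06 to 0.10 over 24 alternatives. The split turned with the arrays used: 10 of 18 had a lower mean with all arrays. It was 3 of 18 without GF WT replicate 6 and 15 of 18 without GF WT replicate 4. Pcna ranged over 13.20 to 13.53 with a median of 13.35 against 13.20 to 13.56 with a median of 13.30, a difference of 0.01 (standard error 0.07). Mcm2 ranged over 9.18 to 9.75 with a median of 9.38 against 9.16 to 9.75 with a median of 9.35 and Mcm5 over 10.28 to 10.83 with a median of 10.56 against 10.29 to 11.02 with a median of 10.46, with differences of 0.04 and -0.01. All 6 MCM subunits lay between -0.09 and 0.04. Rrm2 ranged over 9.59 to 10.25 with a median of 9.91 against 9.25 to 10.88 with a median of 9.92, a difference of 0.04 (standard error 0.23), and Ccne1 over 9.51 to 9.90 with a median of 9.77 against 9.02 to 10.22 with a median of 9.49, a difference of 0.20 (standard error 0.16) that was 0.09 and 0.33 without GF WT replicates 2 and 6.

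The largest lower means were those of Cdt1, Ccne2 and E2f1. Cdt1 ranged over 11.24 to 11.62 with a median of 11.47 against 11.39 to 11.79 with a median of 11.63, a difference of -0.17 (standard error 0.08, limma adjusted p = 0.876). E2f1 ranged over 8.06 to 8.68 with a median of 8.45 against 8.14 to 9.56 with a median of 8.38, where GF WT replicate 6 was the highest array and without it the difference was 0.11 instead of -0.10. Ccne2, cyclin E2, ranged over 2.45 to 7.19 with a median of 3.27 against 2.81 to 6.47 with a median of 3.26 and was well above background on 1 array of each label.

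**Figure D4:**
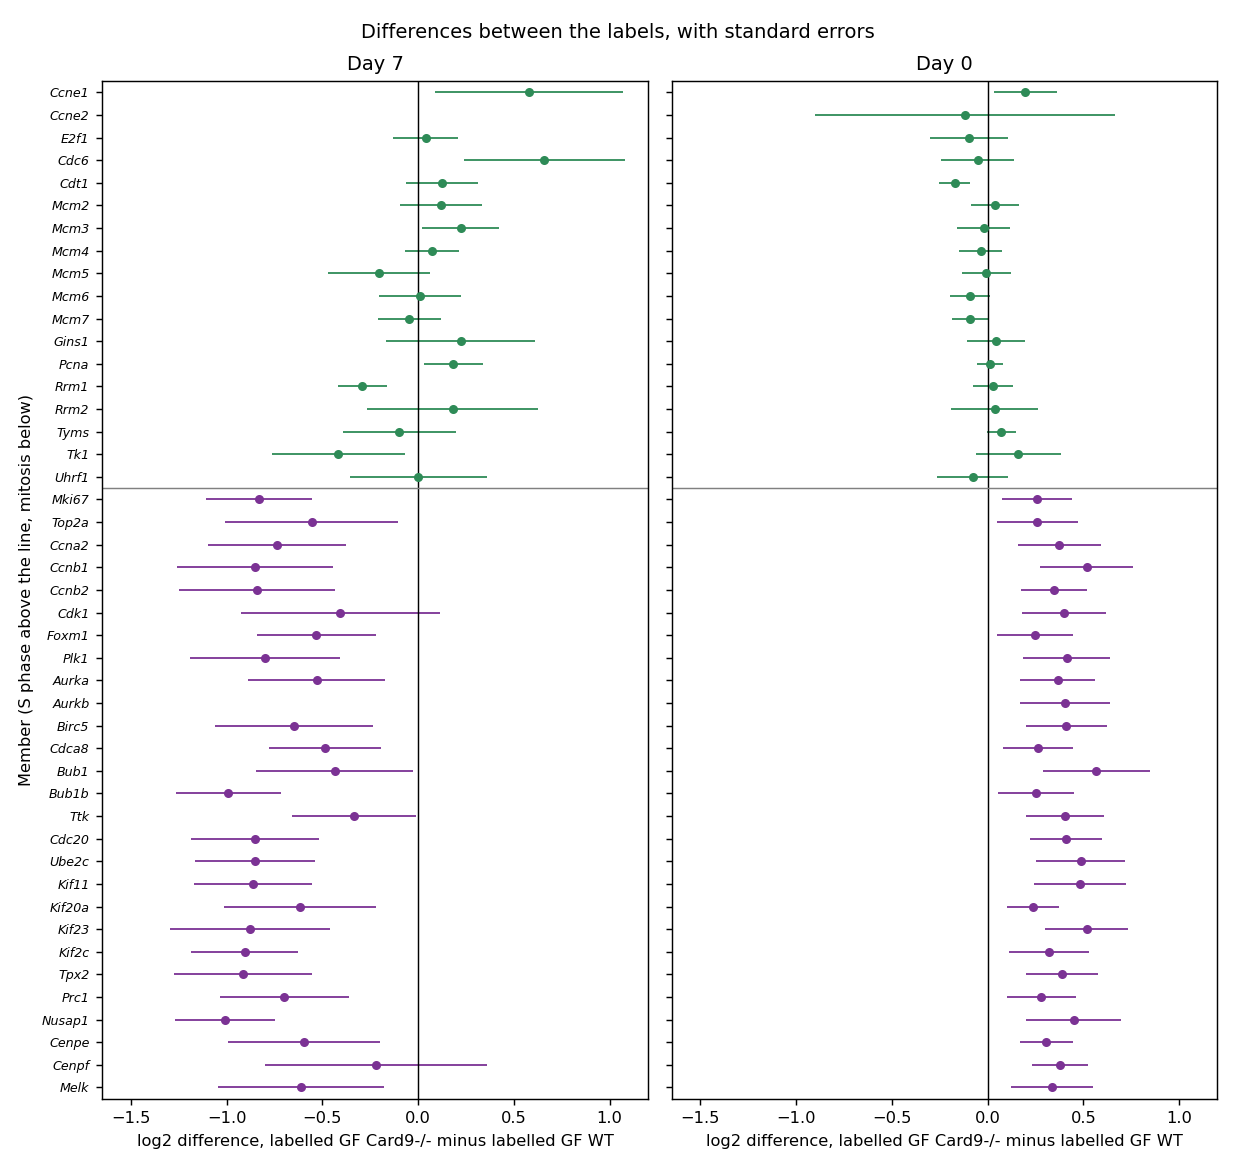
Log2 difference between the labels (x axis, GF Card9-/- minus GF WT) for each gene (rows) at day 7 and at day 0, with the standard error of the limma fit as bars. The mitosis genes lie between -1.01 and -0.22 at day 7 and between 0.24 and 0.57 at day 0, and the S phase genes lie on both sides of 0 on both days.

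The mitosis score at day 0 was -0.08 to 0.48 in the arrays labelled GF Card9-/- (median 0.14) and -0.94 to 0.54 in those labelled GF WT (median -0.17). The extremes were both labelled GF WT: replicate 2 was the lowest array for 27 of 27 mitosis genes, and replicate 6 the highest for 18 of 27 and for 15 of 18 S phase genes. The S phase score was -0.24 to 0.24 against -0.29 to 0.64, with medians of 0.00 and -0.05. The S phase minus mitosis score was -0.51 to 0.28 under the label GF Card9-/- and -0.15 to 0.65 under the label GF WT, with medians of -0.21 and 0.16.

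The direction at day 0 did not hold on every slide. The median of the mitosis genes was 0.19 (24 of 27 higher), 0.68 (27 of 27) and 0.71 (27 of 27) on 3 slides. On the slide of GF WT replicate 6 with GF Card9-/- replicates 5 and 6 it was -0.54, with 27 of 27 lower. Within each of the 2 scan sessions 27 of 27 were higher, with medians of 0.50 and 0.26. The median was 0.53 without GF WT replicate 6 and 0.23 with GF WT replicate 2 left out instead. The number of members with an unadjusted p under 0.05 (4 with all arrays) was 0, 2, 1, 1, 3, 2 and 6 without GF Card9-/- replicates 1 to 7. It was 2, 0, 2, 2, 7 and 26 without GF WT replicates 1 to 6. Here too the share of all genes was not counted in these fits, so the numbers cannot be set against it. Beside this, smooth muscle markers had a lower mean for 8 of 8 genes (median -0.45, summed levels of -2.11 to 1.50 against -1.36 to 1.27), macrophage markers for 6 of 6 (median -0.43, -1.34 to 0.71 against -1.45 to 1.08), and crypt stem cell markers had a median of 0.09 (-0.34 to 0.24 against -0.33 to 0.15). Epithelial markers had a higher mean for 9 of 10 genes (median 0.07), with summed levels of -0.32, -0.18 and 0.19 in GF WT replicates 2, 4 and 6, whose mitosis scores were -0.94, -0.48 and 0.54. The highest epithelial level (0.22) was that of GF WT replicate 5, with a mitosis score of 0.02, and GF Card9-/- replicate 7 had 0.15 with a score of -0.08. B cell markers (7 of 9 lower, median -0.15) in GF WT replicates 2, 4 and 6 ran opposite to the mitosis score, at 1.93, 1.26 and -1.91, and were -1.70 in GF Card9-/- replicate 4 with its mitosis score of 0.48, but were highest (2.27) in GF Card9-/- replicate 6, whose mitosis score was 0.14. T cell markers had a higher mean for 7 of 7 genes (median 0.21, -0.59 to 1.92 against -0.56 to 0.51). Their part in the result was not tested. Without GF Card9-/- replicate 7, the array with pancreas genes, the mitosis median was 0.42, with 27 of 27 higher.

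The label difference at day 7 was set against that at day 0 by an interaction test. It covered the 23633 probes that are common to both designs and were tested on both days. These hold 36 of the 45 genes (14 S phase and 22 mitosis genes). The day 7 difference minus the day 0 difference was negative for 22 of 22 mitosis genes, with a median of -1.15 on the log2 scale. None of the 36 passed (lowest adjusted p = 0.422 from limma), nor did any of all probes (0%), of which 7.14% had an unadjusted p under 0.05. Unadjusted p was under 0.05 with a negative value for 18 of the 22 mitosis genes, against 4.39% of all 15976 genes, and for none of the 14 S phase genes, whose median was 0.11.

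Nusap1 had the largest difference of differences, -1.46 (standard error 0.38, limma adjusted p = 0.422). Bub1b gave -1.24 (standard error 0.34), Ccnb1 -1.37 (0.45), Ube2c -1.34 (0.39) and Mki67 -1.09 (0.32). For 21 of the 22 mitosis genes the mean was lower at day 7 and higher at day 0, against 27.2% of all genes, and the exception was Foxm1, represented here by a dim probe with differences of 0.42 at day 7 and 0.50 at day 0. Levels were not compared between the days within a label, because the array design and the day cannot be told apart.

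Genes of the same steps outside the 45 were counted in the same way. Of 41 other mitosis genes at day 7, 37 had a lower mean, with a median of -0.54. Unadjusted p was under 0.05 for 8 of them (1.25% of all genes) and the labels did not overlap for 4 (0.925% of all genes), all lower. Of 3 that were chosen after their values were seen, Nek2, a centrosome kinase, differed by -1.13 (standard error 0.31), Ncapd2, a subunit of condensin, by -0.59 (standard error 0.17), and Cdc25b, the phosphatase that activates CDK1, by -0.58 (standard error 0.18), each with a limma adjusted p of 0.913. Of 39 other replication genes, 20 had a lower and 19 a higher mean, with a median of -0.01, from -0.56 for Orc2, of the origin recognition complex, to 0.42 for Hells, a chromatin remodeler. At day 0, 40 of the 41 other mitosis genes had a higher mean (median 0.28, the exception was Pttg1, securin), and 23 of the 39 replication genes (median 0.02). None of these genes passed the test on either day.

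The genes that act before S phase and the inhibitors of the cycle had list medians near 0, with single genes far from them. The 10 G1 cyclins, their kinases and partners had a median of 0.07 at day 7, and Cdk2, the kinase of cyclin E, differed by -0.41 (standard error 0.17, limma adjusted p = 0.913). At day 0 all 10 had a higher mean, with a median of 0.14. Myc, the growth factor-induced transcription factor, differed by 0.51 (standard error 0.09, limma adjusted p = 0.12), and its labels did not overlap. The 16 brakes had a median of -0.03 on both days, with 8 lower and 8 higher at day 7. Among them E2f4, a repressor E2F, had a difference of 0.83 at day 7 (standard error 0.27, limma adjusted p = 0.913), and Cdkn2a, which encodes p16 and ARF, one of 1.17 (standard error 0.68), with a probe well above background on 2 arrays labelled GF Card9-/- and none labelled GF WT. At day 0 Cdkn1a (p21) differed by 0.30, Cdkn1b (p27) by -0.18, Cdkn2d (p19) by -0.20 and Rb1, the retinoblastoma protein, by -0.24, with adjusted p of 0.579 to 0.818.

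**Figure D5:**
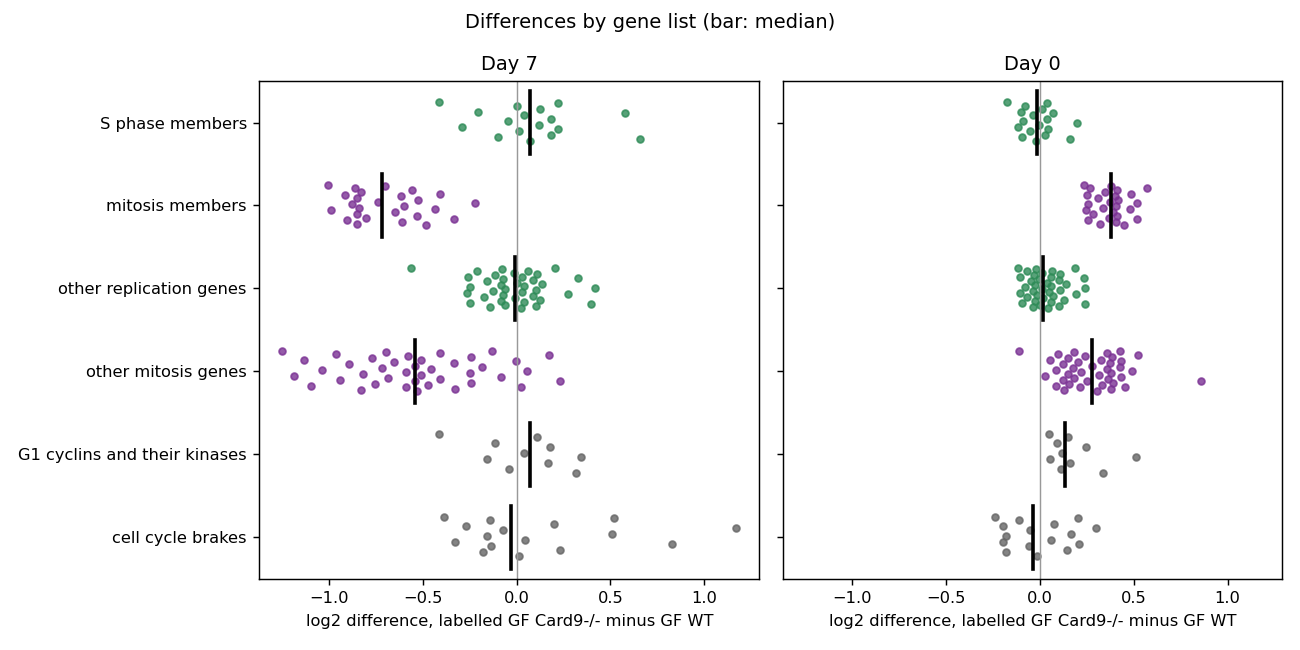
Log2 difference between the labels (x axis, GF Card9-/- minus GF WT) of each tested gene (points) in 6 lists (rows) at day 7 and day 0, with the median of a list as a vertical bar. Both mitosis lists lie to the left at day 7 (medians -0.72 and -0.54) and to the right at day 0 (0.38 and 0.28), while both replication lists lie around 0.

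Other probes of the same genes mostly gave the same direction as the brightest one. At day 7, 8 of 10 further tested probes of mitosis genes had the sign of the brightest probe, and so did 5 of the 5 that were well above background on all 8 arrays. At day 0 these were 23 of 27 and 13 of 14. The exceptions at day 7 were dim probes of Tpx2 (0.18) and Foxm1 (0.42), neither above that level in any of the 8 arrays. Of the further S phase probes, 3 of 4 at day 7 and 9 of 12 at day 0 had the sign of the brightest one, and the exception at day 7 was a dim Uhrf1 probe (-0.77).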

How the data were processed

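The authors scanned the single-colour arrays and ran Agilent Feature Extraction (version 10.7.3.1 in the submitters' processing notes). The deposited files hold each spot's intensity on a linear scale and its p-value against background, and the authors also deposited tables of normalized log2 values, used here as an alternative. Here the processed intensity was put on the log2 scale and quantile normalized within a day over all spots. Control spots and outlier spots were then left out, and replicate spots were averaged per probe. Probes were tested if p was under 0.05 for at least 50% of the spots in no fewer than 60% of the arrays under either genotype label: 44643 of 55681 at day 7, and 47410 of 56605 at day 0. Probes were named through their RefSeq record, or else by the symbol in the files. Genotype labels were compared within each day by limma 3.58.1 in R 4.3.3 (lmFit and eBayes), with Benjamini-Hochberg adjustment over all probes at 0.05, and days by the interaction contrast of a joint fit. The fits were tested on simulated data with independent noise for each probe, which does not cover genes that move together within an array.

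Values are given for 12 canonical members, for members past the threshold or whose labels do not overlap, and for the 3 largest differences in each direction per day. The members and lists were chosen with earlier results of these data known, so a list is described by counts and its median beside the same over all genes, and no list was tested. GF Card9-/- replicates 2 and 2.1 of day 7 were about as far apart as other pairs (SD of their difference 0.852, which is 0.939 of the median pair) and count as 2 samples. The number of arrays limits the precision. Alternatives were other scalings, background corrections, filters, probe choices, blocks and left-out arrays.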

Additional observations from a re-analysis of the deposited data

Results flagged for a closer look

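In 4 of 84 groups of 4 to 7 arrays, 1 array lay far from the others of its label, by a gap that chance gives in about 1 of 20 groups. At day 7, Kif2c was 3.74 in GF Card9-/- replicate 4, where the nearest array of that label was 4.50. At day 0, Ccne2 was 7.19 in GF Card9-/- replicate 5 (nearest 3.66) and 6.47 in GF WT replicate 6 (nearest 4.15). E2f1 was 9.56 in GF WT replicate 6 at day 0, where the nearest was 8.47. These values are normalized log2 signals, and no cause was tested.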

How the results depend on the processing

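No member passed the threshold on either day under the alternatives run. Nor did any in the comparison of the days, which was repeated only with 1 normalization over both days, without the slide of GF WT replicate 6, without the 2 arrays with pancreas genes and without each array of either day (the last chosen after seeing the data). The mitosis genes kept their directions: all, or all but 1, were lower at day 7 over 19 alternatives and 27 of 27 higher at day 0 over 24, with medians of -1.24 to -0.45 and 0.23 to 0.57. Leaving out 1 array at a time gave medians of all members of -0.71 to -0.29 at day 7 and 0.15 to 0.40 at day 0. It gave S phase minus mitosis medians of 0.55 to 1.01 (0.79 with all arrays) and -0.48 to -0.29 (-0.39 with all arrays). The median of all members at day 7 (-0.49) was -0.93 with only the slides that hold both genotypes, and the cause was not tested.

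With the replicate block, which left 4 arrays at day 7, that median was -1.03, the S phase minus mitosis median was 1.16, and E2f1, Mcm2 and Pcna turned to -0.037, -0.081 and -0.087. At day 0 the block called 0 members. Samples with the same number did not all deviate together (correlations of 0.03 and 0.11 at day 7, -0.02 to 0.37 at day 0), so the numbers were not taken as pairs.

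Differences of S phase genes turned, those of Cdc6 (0.66) and Ccne1 (0.58) at day 7 among them. At day 7 with dim values raised, Cdc6 was -0.13. On the slides with both genotypes Ccne1, E2f1, Cdc6, Mcm2, Mcm3 and Rrm2 were -0.21, -0.0058, -0.0032, -0.067, -0.0046 and -0.45. Without the 2 arrays with pancreas genes E2f1, Mcm2, Mcm3 and Rrm2 were -0.12, -0.12, -0.014 and -0.31. At day 0 Ccne2 was 0.010 with normexp, 0.073 in the authors' table and 0.12 with dim values raised, Pcna was -0.0024 in the authors' table, Rrm2 was -3e-04 with the slide as a block, and E2f1, Mcm5, Pcna and Rrm2 were 0.073, 0.08, 0.064 and 0.29 without the slide of GF WT replicate 6. Leaving out 1 array at a time, E2f1, Mcm2 and Rrm2 ranged over -0.086 to 0.15, -0.026 to 0.26 and -0.067 to 0.57 at day 7. E2f1 was -0.022 without GF WT replicate 1, and Rrm2 -0.043 without GF Card9-/- replicate 2.1. At day 0, Ccne2 ranged over -0.69 to 0.41, E2f1 over -0.18 to 0.11, Mcm2 over -0.014 to 0.11, Mcm5 over -0.057 to 0.090, Pcna over -0.017 to 0.058 and Rrm2 over -0.093 to 0.23. The number of arrays and, for Ccne2, Aurkb, Cdc6, Ttk and Cenpf at day 7, signals near background limit these values.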
